A study of Mus musculus with 35 samples.

Results

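The genes described here encode glutamate receptors of the mouse hippocampus and the auxiliary subunits bound to them. They were chosen by symbol, and all 33 were found among the 43629 gene identifiers of an mRNA-seq count table. They comprise 4 AMPA, 6 NMDA, 5 kainate, 1 delta and 6 metabotropic receptor genes and 11 genes of auxiliary subunits. The left hippocampus came from C57BL/6J mice of both sexes, 6 to 7 weeks old and without any engineered allele. SE mice received pilocarpine (350 mg/kg in the sample labels, with further doses until seizures held in the study's methods), controls received saline, and the methods give scopolamine to both beforehand. The 1-h groups held 3 SE mice and 2 controls, the 8-h groups 2 SE mice and 3 controls, and 3 SE mice each of 36 h and 120 h share 3 controls.

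Glutamate carries most excitatory transmission in the hippocampus. AMPA receptors carry the fast current, NMDA receptors admit calcium when glutamate coincides with depolarization, and kainate receptors act on both sides of the synapse. Metabotropic receptors couple to G proteins, and auxiliary subunits set the traffic and gating of the channels they bind. In bulk tissue, fewer cells of a type and less RNA per cell cannot be told apart.

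Library totals ranged from 8503816 to 28465548 counts. By the batch given in the sample labels, control replicate 1 of 8 h (G511) stood apart from the other 4 libraries of 8 h (G317), the libraries of 1 h came from G511 and G369, and those of 36 h and 120 h from G545. Levels are given as CPM, the library-scaled count after TMM normalization over the 19 libraries. The 20 markers of choroid plexus epithelium, which adjoins the hippocampus, summed to 329 to 439 CPM in the 36-120 h controls, to 9362, 7860 and 273 in the SE libraries of 36 h and to 293, 375 and 9053 in those of 120 h. At 8 h they summed to 1168, 6266 and 2019 CPM in controls and to 5409 in both SE libraries. At 1 h the sums were 6048 and 4873 CPM in controls and 9998, 6585 and 7322 after SE, so every SE library was above both controls, and 19 of the 20 markers had higher means, 0 of them past the threshold. The 8 neuron markers, which should be high in this tissue, summed to between 5900 and 9132 CPM in every library. Xist, a transcript of female cells, was above 1 CPM in 2 of the 3 shared controls. It was so in 0 of the 3 SE libraries of 36 h and 1 of the 3 of 120 h. Sex was thus unbalanced between SE and control, most at 36 h, and its part was not tested beyond a fit with Xist as a covariate.

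The promoters of Grin1, Grin2d and Cacng2 are shown because these genes were lower together in the SE mice of 8 h when compared with the controls of their own batch. The sequences are those of RefSeq on GRCm38.p6, from 250 bases before to 50 bases after the annotated start of transcription, 5′ to 3′ on the strand of the gene. Capitals mark GC boxes (GGGCGG or CCGCCC), known as Sp1 sites, and CRE half-sites (TGACG or CGTCA), known from CREB. Shisa9 and Cacng3 belonged to the same group of genes.
Grin1 (chr2:25319138-25319437, minus strand): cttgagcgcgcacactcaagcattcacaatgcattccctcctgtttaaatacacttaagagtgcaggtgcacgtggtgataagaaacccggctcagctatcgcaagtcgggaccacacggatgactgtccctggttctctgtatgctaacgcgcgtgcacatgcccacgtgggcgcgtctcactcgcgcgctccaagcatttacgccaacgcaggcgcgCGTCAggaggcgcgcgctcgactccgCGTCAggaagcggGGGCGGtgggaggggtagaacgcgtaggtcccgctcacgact
Grin2d (chr7:45866632-45866931, minus strand): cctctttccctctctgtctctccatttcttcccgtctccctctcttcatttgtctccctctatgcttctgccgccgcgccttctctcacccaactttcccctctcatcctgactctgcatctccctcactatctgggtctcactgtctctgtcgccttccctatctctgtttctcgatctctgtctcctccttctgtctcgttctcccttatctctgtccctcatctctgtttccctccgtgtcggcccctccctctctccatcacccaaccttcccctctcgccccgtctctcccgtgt
Cacng2 (chr15:78119231-78119530, minus strand): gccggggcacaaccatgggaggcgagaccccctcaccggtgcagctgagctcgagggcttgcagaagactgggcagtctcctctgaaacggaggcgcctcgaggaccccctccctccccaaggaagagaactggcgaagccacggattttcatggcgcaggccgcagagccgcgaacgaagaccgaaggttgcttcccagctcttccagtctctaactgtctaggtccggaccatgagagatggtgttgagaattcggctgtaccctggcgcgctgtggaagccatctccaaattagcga

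Grin1 held 1 GC box and 2 CRE half-sites, and these letters were not found in the windows of Grin2d and Cacng2. Of 32851 promoters, searched on both strands, 35.7% held a GC box, 20.8% a CRE half-site, 5.2% an AP-1 site (TGAGTCA or TGACTCA) and 13.6% a TATA box (TATAAA or TTTATA). Of the 33 genes, 21 had 26 promoters in the table, of which 15 held a GC box, 3 a CRE half-site, 1 an AP-1 site and 0 a TATA box. GC content was 60.7% for Grin1, 56.0% for Grin2d and 61.0% for Cacng2, against a median of 52.7% over all promoters.

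In the 8 control mice Gria1 led the AMPA receptor genes at 191 ± 21.2 CPM per kilobase of exon (SD, n = 8), the scale used for all levels compared between genes. These controls came from different times and batches, and the SD takes in the differences between them. Mean CPM in the 1-h and the 36-120 h controls was 1255 and 694 for Grin2b and 207 and 382 for Cnih2. Gria2, whose edited form makes the channel impermeable to calcium, had 126 ± 34.0 and was below Gria1 in 8 of 8 controls although the ranges overlapped. Gria3 (26.3 ± 5.49) and Gria4 (12.5 ± 2.05) followed, each apart from its neighbours.

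Among NMDA receptor genes Grin2b had 112 ± 34.5 CPM per kilobase (SD, n = 8) and Grin1, the obligatory subunit, 63.8 ± 20.6, with Grin2b higher in 7 of 8 controls. By the length of the longest transcript the order turned, with 145 for Grin1 and 122 for Grin2b. Grin2c (9.21 ± 1.79), Grin2a (6.74 ± 2.70), Grin3a (3.47 ± 0.685) and Grin2d (2.76 ± 1.63) were lower, and the ranges of neighbours in this order overlapped. Grik5, a high-affinity kainate subunit, had 66.0 ± 18.7 and lay apart from Grik4 (11.8 ± 2.29), Grik2 (9.38 ± 1.97), Grik3 (8.40 ± 2.30) and Grik1 (5.04 ± 0.615), whose neighbouring ranges overlapped. By the longest transcript Grik2 (16.2) was above Grik4 (11.9). Grid1, the delta receptor, had 13.2 ± 1.21.

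Metabotropic levels ran from Grm5, a Gq-coupled receptor, at 34.5 ± 10.9 CPM per kilobase (SD, n = 8), over Grm2 (18.97 ± 7.53), Grm3 (13.0 ± 3.16) and Grm7 (10.5 ± 1.71), with overlap between neighbours, to Grm4 (3.24 ± 1.59) and Grm8 (1.08 ± 0.331), which lay apart. By the longest transcript Grm7 (14.6) was above Grm3 (13.2). Of the auxiliary genes, Cnih2, a cornichon that binds AMPA receptors, stood apart at 260 ± 88.4. Shisa9 (63.7 ± 21.7), Cacng3 (49.3 ± 18.1), Neto1 (31.04 ± 7.22), Cnih3 (24.4 ± 2.05), Cacng2 (16.4 ± 4.85), Neto2 (11.2 ± 3.20) and Cacng4 (8.60 ± 1.25) formed a series with overlapping neighbours, and Cacng5 (3.52 ± 0.965) was apart below them. This order rests on exon lengths of 1237 bases for Cnih2, 1275 for Shisa9 and 1523 for Cacng3, against 5510 for Cacng2. In mean CPM, not scaled to length, Cnih2 (321.5) stayed highest, but Neto1 (109.6) and Cacng2 (90.6) were above Shisa9 (81.2) and Cacng3 (75.1).

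Cacng7 and Cacng8, AMPA receptor regulatory proteins of the stargazin family, had 0 to 5 and 0 to 7 reads per library, 43 and 58 reads over all 19 libraries. Both failed the filter on low counts, so 31 genes were tested. The model of Cacng8 in Ensembl 65 covers 663 bases of exon, the fewest of the 33 genes, and its part in the low counts was not tested. The counts of Cacng8 thus give no level by which to rank it among the auxiliary genes.

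**Figure D1:**
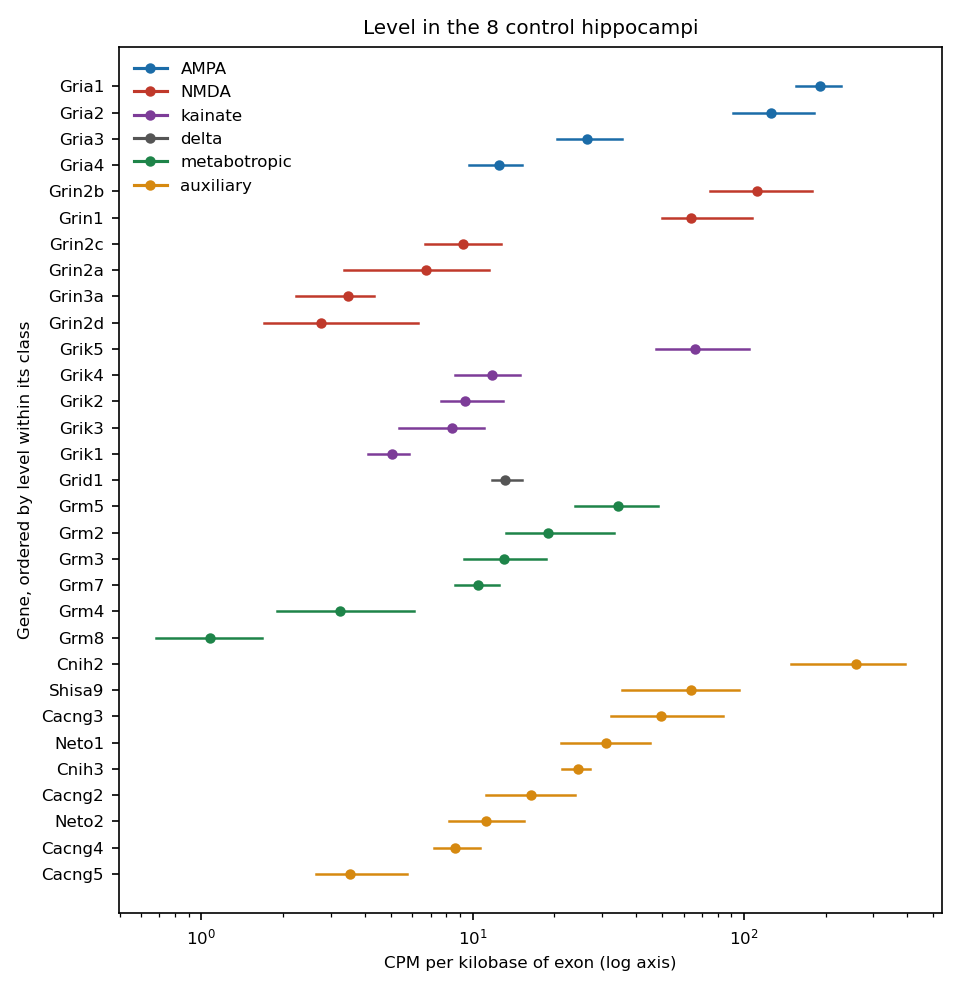
Level of 31 glutamate receptor and auxiliary genes (y axis) in the 8 control hippocampi, in CPM per kilobase of exon on a log axis (x axis), with points at the mean and lines from the lowest to the highest library. Gria1, Grin2b, Grik5, Grm5 and Cnih2 lead their classes at 191, 112, 66.0, 34.5 and 260 (Grin1 leads the NMDA genes by the longest transcript), while Cacng7 and Cacng8 are left out for their low counts.

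Against all controls of each time, 0 of 31 genes passed an adjusted p of 0.05 by edgeR's quasi-likelihood test (QL), where the background of all genes passing was 0.0799%, 0.0%, 0.0252% and 0.0563% in order of time. An unadjusted p under 0.05 was found for 1 of 31 at 1 h (background 4.39%), 4 in the 8-h comparison (9.47%), 2 in that of 36 h (7.89%) and 8 in that of 120 h (9.6%). SE was lower for all 4 at 8 h (background of lower genes 5.52%) and for 7 of the 8 at 120 h (5.06%). Groups did not overlap for 3, 11, 4 and 7 of 31 genes in order of time (background 18.5%, 28.0%, 14.3% and 15.4%). SE was the lower group for all 11 at 8 h (background 13.4%) and 6 of the 7 at 120 h (9.1%). The median log2 fold change of the 31 genes was -0.03, -0.23, -0.03 and -0.06 in order of time, and over all genes tested it was within 0.02 of 0. The sign of the small medians did not hold at 1 h and 36 h. The 120-h median was -0.10 to -0.02 over the single libraries left out. At 1 h the median was 0.02 without control replicate 2. At 36 h it was 0.12 in a fit with a choroid plexus covariate and -0.09 to 0.04 over the single libraries left out. Without the 2 SE libraries of high choroid plexus markers, which left SE replicate 3 alone, it was 0.11.

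**Figure D2:**
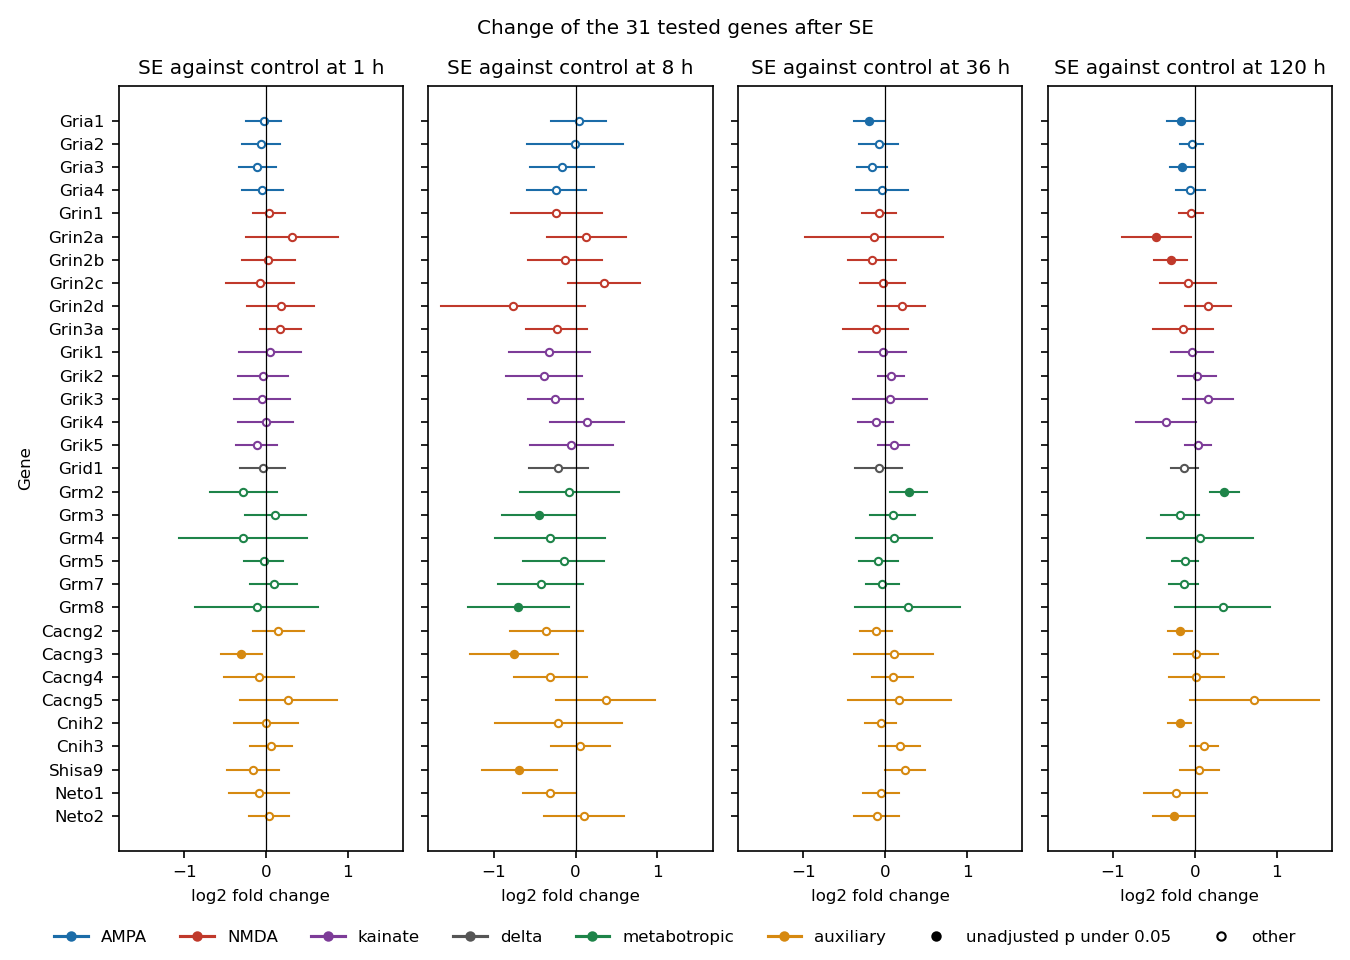
Log2 fold change after SE (x axis) of the 31 tested genes (y axis) at the 4 times, 1 panel each, with lines for the 95% confidence interval and filled points for an unadjusted p under 0.05. At 8 h 24 of 31 points lie below 0 with wide intervals, and Grm2 lies above 0 at 36 h (0.29) and 120 h (0.36).

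Gria1 (ENSMUSG00000020524, chromosome 11, 56824889 to 57143746 of NCBIM37) had 1154, 1150 and 1233 CPM in the 36-120 h controls. It had 1033, 1025 and 986 CPM at 36 h after SE and 1125, 1030 and 960 CPM at 120 h. All 6 SE libraries lay below the 3 controls, which both times share. Log2 fold changes were -0.20 ± 0.08 at 36 h and -0.17 ± 0.07 at 120 h (standard error, 95% intervals -0.38 to -0.01 and -0.34 to -0.01), with QL adjusted p of 0.616 and 0.484. Without the 2 SE libraries of high choroid plexus markers, which left SE replicate 3 alone, the 36-h value was -0.26. Without SE replicate 3 of 120 h the 120-h value was -0.13. Of the 6 markers of CA1 pyramidal cells 5 had lower means at each time, with a median log2 fold change of -0.19 at 36 h and -0.15 at 120 h, and 0 passed. Astrocyte markers summed to 2672, 2274 and 2765 CPM in the SE libraries of 36 h and 1712, 1796 and 1862 in the controls. Of these 6 markers 1 was called higher (background 0.0252%). The part of these cells in the values of Gria1 and of the other genes at 36 h was not tested.

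Gria3 had 209, 202 and 221 CPM in the shared controls, 167, 192 and 197 at 36 h after SE and 194, 198 and 172 at 120 h. SE and control did not overlap at either time. Gria3 lies on chromosome X, and the part of the sex imbalance between groups in its values was not tested further. Its log2 fold changes were -0.17 ± 0.08 and -0.16 ± 0.07 (standard error, QL adjusted p = 0.675 and 0.492). The 36-h value was -0.10 without the 2 libraries of high choroid plexus markers, which left SE replicate 3 alone. For Gria2 the 95% interval was -0.32 to 0.16 at 36 h and -0.18 to 0.10 at 120 h.

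At 8 h Gria2 had 1137 CPM in the control of G511, 637 and 662 in those of G317 and 761 and 867 after SE. SE lay above the controls of its own batch and below that of G511. The log2 fold change was -0.01 ± 0.26 against all controls and 0.31 ± 0.12 within G317 (standard error, QL adjusted p = 0.993 and 0.0985). Within G317 DESeq2 called it higher (adjusted p = 0.0187), the likelihood ratio test did not (0.171), and with GC correction its value was 0.10. Gria4, the least abundant AMPA gene, had 92.2, 85.3 and 75.1 CPM in the 8-h controls and 73.9 and 70.5 after SE, with SE lower in both mice and a log2 fold change of -0.24 ± 0.16.

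The share of Gria2 in the summed level of the 4 AMPA genes per kilobase, a measure chosen after the values were seen, was 32.7, 32.6 and 31.9 percent in the shared controls and 34.0, 34.4 and 34.8 percent at 120 h after SE. Every SE library of 120 h lay above every control. The difference was 2.01 percentage points, with p = 0.1 by a two-sided exact permutation test, the smallest possible with 3 against 3 mice, and 0.6 after Benjamini-Hochberg adjustment over 12 tests. At 36 h, 31.1, 36.9 and 33.7 percent overlapped the controls.

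Of the NMDA receptor genes, Grin3a, whose product lowers calcium entry, had 57.7 and 63.2 CPM in the 1-h controls and 67.8, 68.5 and 68.7 after SE. At 8 h it had 56.9, 68.4 and 60.9 CPM in controls and 55.6 and 51.0 after SE. SE libraries lay above both controls at 1 h and below all 3 at 8 h. The log2 fold changes were 0.18 ± 0.11 and -0.23 ± 0.16 (standard error), neither past the threshold (QL adjusted p = 0.999 and 0.655). The 1-h value was 0.11 without control replicate 1.

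Grin2d, known from interneurons of the adult forebrain (ENSMUSG00000002771, chromosome 7, 53087253 to 53126298 of NCBIM37), had 12.7 CPM in the 8-h control of G511, 24.1 and 37.0 in the controls of G317, and 13.2 and 15.7 after SE. SE lay below the controls of its own batch and above the control of G511. Against all 3 controls the log2 fold change was -0.76 ± 0.39 (standard error, QL adjusted p = 0.568), and against the 2 controls of G317 it was -1.08 ± 0.23 (adjusted p = 0.0119). Of the 7 interneuron markers 1 was called higher and 2 lower within G317 (over all genes 13.4% called, 7.72% lower). Their median log2 fold change was 0.00, but 3 had higher and 4 lower means, over a range of -0.81 to 0.47. In both SE libraries Sst, Pvalb and Lhx6 lay below the controls of G317, and Gad1 and Vip above them. The part of interneurons was not tested. In the 17 libraries other than those 2 controls, Grin2d stayed between 9.95 and 15.7 CPM.

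At 1 h Grin2d had 11.7 and 10.8 CPM in controls and 13.1, 13.3 and 11.7 after SE, and at 36 h 10.9, 12.1 and 9.95 in controls and 12.9, 12.1 and 12.2 after SE. Unrounded, SE was above all controls at both times, but at each time the lowest SE library and the highest control were equal to the digits given. The log2 fold changes were 0.18 ± 0.18 and 0.20 ± 0.13 (standard error, QL adjusted p = 0.999 and 0.755).

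Grin1 (ENSMUSG00000026959, chromosome 2, 25146701 to 25174707 of NCBIM37) had 542 CPM in the 8-h control of G511, 813 and 1038 in the controls of G317, and 687 and 675 after SE. SE was again between the controls of the 2 batches, and above all 14 libraries of other times, which lay between 459 and 558 CPM. Its log2 fold change was -0.24 ± 0.24 against all controls and -0.46 ± 0.13 against those of G317 (standard error, QL adjusted p = 0.755 and 0.0390).

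Grin2b, whose receptors close slowly (ENSMUSG00000030209, chromosome 6, 135679844 to 136123529 of NCBIM37), had 611, 705 and 765 CPM in the shared controls and 594, 538 and 553 at 120 h after SE, with no overlap. It differed by -0.30 ± 0.09 on the log2 scale (standard error, 95% interval -0.50 to -0.09). The adjusted p was 0.368 by QL and 0.0396 by DESeq2, which called 0.9% of all genes, and 0.0396 to 1.0 over 15 alternatives. At 36 h Grin2b had 542, 559 and 733 CPM, and the third of these, the library with low choroid plexus markers, lay among the controls.

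Grin2a, which joins the receptor as synapses mature and is taken up here because the study names it at 120 h, had 17.9, 22.5 and 24.6 CPM in the shared controls, 7.44, 22.7 and 28.4 at 36 h and 17.2, 11.4 and 18.2 at 120 h. SE and control overlapped at both times. The 120-h log2 fold change of -0.47 ± 0.19 (standard error, QL adjusted p = 0.476) became -0.28 without SE replicate 2 and -0.61 without SE replicate 3. The log2 ratio of Grin2a to Grin2b per kilobase was lower by -0.19 at 120 h (two-sided exact permutation p = 0.6). Grin2c, best known from cerebellar granule cells, had 44.4, 51.4 and 64.4 CPM in 8-h controls and 75.1 and 61.8 after SE, with overlap.

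Of the 5 kainate receptor genes, 0 had an unadjusted p under 0.05 at any time against all controls. Within G317 at 8 h 1 of them did, with SE lower, as did 4357 of 15369 genes in either direction. Grik2, a principal subunit of hippocampal kainate receptors, had 94.4, 63.4 and 70.0 CPM in the 8-h controls and 55.5 and 61.7 after SE, below all 3 controls. Its log2 fold change was -0.39 ± 0.20 (standard error, QL adjusted p = 0.575) and -0.20 against the controls of G317. Grik1 (-0.32) and Grik3 (-0.25) did not overlap their controls at 8 h either.

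Grik4, a high-affinity subunit, had 81.3, 84.9 and 67.1 CPM in the shared controls and 66.6, 44.98 and 70.5 at 120 h after SE, where SE replicate 2 was the lowest of all 19 libraries (log2 fold change -0.35 ± 0.16, standard error, and -0.17 without that library). Grik5 had log2 fold changes of -0.11, -0.05, 0.11 and 0.04 in order of time. Grid1, which organizes synapses, had -0.04, -0.21, -0.08 and -0.13 on the same scale, with overlapping groups each time.

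Among the metabotropic genes Grm2, whose Gi-coupled product lowers glutamate release (ENSMUSG00000023192, chromosome 9, 106546868 to 106558440 of NCBIM37), had 51.8, 44.0 and 49.3 CPM in the shared controls, 52.1, 57.6 and 65.2 at 36 h after SE and 59.0, 60.6 and 65.2 at 120 h. Every SE library of both times was above every control, most narrowly SE replicate 1 of 36 h. Log2 fold changes were 0.29 ± 0.10 and 0.36 ± 0.08 (standard error, 95% intervals 0.06 to 0.51 and 0.18 to 0.54). The adjusted p was 0.509 and 0.265 by QL, and 0.0310 at 120 h by DESeq2. Over 15 alternatives at 120 h it was 0.0310 to 1.0. Without the libraries of high choroid plexus markers the values were 0.43 at 36 h, where SE replicate 3 was left alone, and 0.30 at 120 h. Of the 6 markers of dentate granule cells 4 had higher means at 36 h and 3 at 120 h, with median log2 fold changes of 0.12 and 0.08, and 0 passed. Across genes, which are no replicates, Spearman's rho between log2 fold change and GC content was 0.20 at 36 h and 0.05 at 120 h over all genes, and 0.38 and 0.32 over the 31. With GC correction Grm2 had 0.22 and 0.34. The part of dentate granule cells was not tested.

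At 8 h SE had the lower mean for all 6 metabotropic genes, whose median log2 fold change was -0.37. Against the controls of G317 it was lower for 5 of the 6, with a median of -0.32, and Grm5 had 0.09 ± 0.12 (standard error, QL adjusted p = 0.696). Grm8, a presynaptic group III receptor, had 11.1, 8.76 and 8.99 CPM in controls and 5.05 and 6.72 after SE. Grm3, a group II receptor of neurons and astrocytes, had 58.1, 47.6 and 41.5 CPM in controls and 38.4 and 34.2 after SE. SE was below all controls for both genes. The log2 fold changes were -0.70 ± 0.27 and -0.45 ± 0.20 (standard error, QL adjusted p = 0.503 and 0.526), and -0.58 and -0.32 against the controls of G317 (adjusted p = 0.225 and 0.192). Grm7 (-0.43 ± 0.23), Grm4 (-0.31 ± 0.30) and Grm5 (-0.14 ± 0.22) overlapped their controls.

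The auxiliary genes Shisa9 and Cacng3 had the smallest p of all 31 genes at 8 h. Shisa9, or CKAMP44, alters AMPA receptor desensitization (ENSMUSG00000022494, chromosome 16, 11984674 to 12267896 of NCBIM37), and had 79.1 CPM in the control of G511, 108 and 122 in those of G317 and 65.7 and 63.2 after SE. Cacng3, of the stargazin family (ENSMUSG00000066189, chromosome 7, 129815258 to 129912905 of NCBIM37), had 71.2, 104 and 128 CPM in the same controls and 61.7 and 58.9 after SE. SE lay below all 3 controls for both genes, and the 2 controls of G317 were the highest of all 19 libraries.

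Against all controls the log2 fold change was -0.69 ± 0.20 for Shisa9 and -0.75 ± 0.24 for Cacng3 (standard error, QL adjusted p = 0.471 and 0.478). Against the controls of G317 it was -0.86 ± 0.11 and -0.96 ± 0.12 (adjusted p = 0.00119 and 0.00116). In that comparison 5 of 31 genes passed, all lower (Shisa9, Cacng3, Cacng2, Grin1 and Grin2d), where 13.4% of all genes were called and 7.72% called lower. Batch as a covariate takes up the lone control of G511, so this fit repeats that comparison, and 5 passed (background 13.5%). With all 19 libraries in 1 fit 1 passed (Shisa9, background 2.43%), and with no filter on low counts 1 passed (Cacng3, 1.41%). Within G317, groups did not overlap for 19 of 31 genes (background 58.1%), and SE was lower for 17 (28.3%).

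Cacng2, or stargazin itself (ENSMUSG00000019146, chromosome 15, 77822178 to 77950458 of NCBIM37), had 90.0 CPM in the control of G511, 120 and 132 in those of G317 and 98.1 and 80.9 after SE. SE was below the controls of G317 and overlapped that of G511. The log2 fold change was -0.36 ± 0.20 against all controls and -0.51 ± 0.12 within G317 (standard error, QL adjusted p = 0.584 and 0.0186).

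Within G317, log2 fold changes correlated with GC content across genes, which are no replicates and share the 4 libraries, with Spearman's rho of -0.25 over all genes and -0.37 over the 31. A correction for GC content, added after seeing the data, left Shisa9 (-0.71), Cacng3 (-0.96), Cacng2 (-0.51) and Grin2d (-0.80) past the threshold, added Neto1 (-0.38) as lower and Grin2c (0.42) as higher, and lost Grin1 (-0.29, QL adjusted p = 0.0823), with 14.8% of all genes called. The likelihood ratio test called 6 within G317, all lower (background 16.2%), and DESeq2 called 5 lower and Gria2 higher (14.1%). The QL fit within G317 called 13.4% of all genes, 7.72% as lower. In it, 2 of the 8 neuron markers were called lower and 0 higher, and 2 of the 6 dentate granule cell markers higher. Of the 6 astrocyte markers 1 was called higher and 2 lower, of the 5 markers of oligodendrocyte precursors 2 were lower, 1 CA1 marker was higher, and 1 each of CA3 and CA2, microglia and oligodendrocytes was lower. The part of batch, GC content and cell makeup in these differences was not tested.

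**Figure D3:**
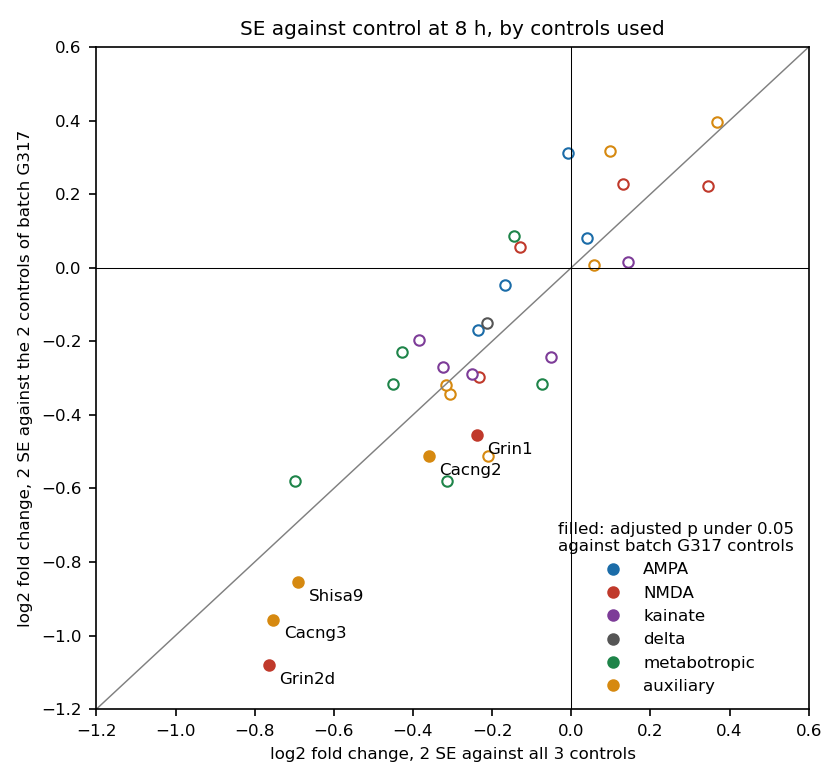
Log2 fold change of the 31 genes at 8 h against all 3 controls (x axis) and against the 2 controls of batch G317 (y axis), with the line of equality and filled points for an adjusted p under 0.05 within G317. The 5 filled points, Grin2d, Cacng3, Shisa9, Cacng2 and Grin1, lie below the line, at -1.08, -0.96, -0.86, -0.51 and -0.46 on the y axis.

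Neto1, a partner of kainate and NMDA receptors, had 118, 118 and 117 CPM in the 8-h controls of both batches and 92.1 and 97.7 after SE, below all of them. It differed by -0.32 ± 0.14 against all controls and -0.32 ± 0.10 within G317 (standard error, QL adjusted p = 0.530 and 0.0690). Cnih2 had 184, 344 and 484 CPM in the same controls and 337 and 250 after SE, with overlap.

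At 1 h Cacng3 alone had an unadjusted p under 0.05. It had 74.8 and 67.9 CPM in controls and 59.4, 57.2 and 57.2 after SE, with all SE libraries lower. Its log2 fold change was -0.30 ± 0.11 (standard error, 95% interval -0.55 to -0.05, QL adjusted p = 0.999). The choroid plexus markers summed higher in every SE library of 1 h than in both controls, and their part in the 1-h values of Cacng3, Grin3a and Grin2d was not tested. At 36 h Cacng3 had 51.2, 49.5 and 54.6 CPM in controls and 46.6, 39.1 and 78.9 after SE, where SE replicate 3, of low choroid plexus markers, was above and the others below all controls. That library alone gave 0.61 (adjusted p = 0.0399, background 0.366%, the lone library taken to vary like the others), all 3 gave 0.11, and the fit without it gave -0.25. The part of choroid plexus tissue in this split was not tested.

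At 120 h Cnih2 had 378, 372 and 396 CPM in controls and 334, 348 and 316.6 after SE. Cacng2 had 61.5, 66.5 and 65.0 CPM in controls and 54.0, 55.6 and 59.4 after SE. SE was below all controls for both genes, by log2 fold changes of -0.19 ± 0.06 and -0.18 ± 0.06 (standard error, QL adjusted p = 0.406 and 0.442). Neto2, the relative of Neto1, had -0.26 ± 0.11 without overlap. The 8 neuron markers all had lower means at 120 h, with a median of -0.09, and their part was not tested. Cacng5 had 12.3, 11.8 and 21.9 CPM in controls and 18.0, 39.6 and 17.5 after SE, a log2 fold change of 0.73 ± 0.35 that was 0.22 without SE replicate 2, the highest of all 19 libraries. The 6 markers of thalamus beside the hippocampus also summed highest in that library. Their sums were 57.5, 178.7 and 68.4 CPM after SE and 62.3, 51.6 and 89.6 in controls. Prkcd (87.3 CPM) and Zic1 (69.85) made up most of the sum in SE replicate 2. In that library Tcf7l2, Lef1 and Synpo2 lay within the range of the controls, and Rgs16 (8.13 CPM) was slightly above them (6.65 to 7.49). The part of this tissue in the 120-h values of Cacng5, Grik4 and Grin2a was not tested. Cnih3 and Cacng4 had log2 fold changes from -0.31 to 0.18 over the 4 times.

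**Figure D4:**
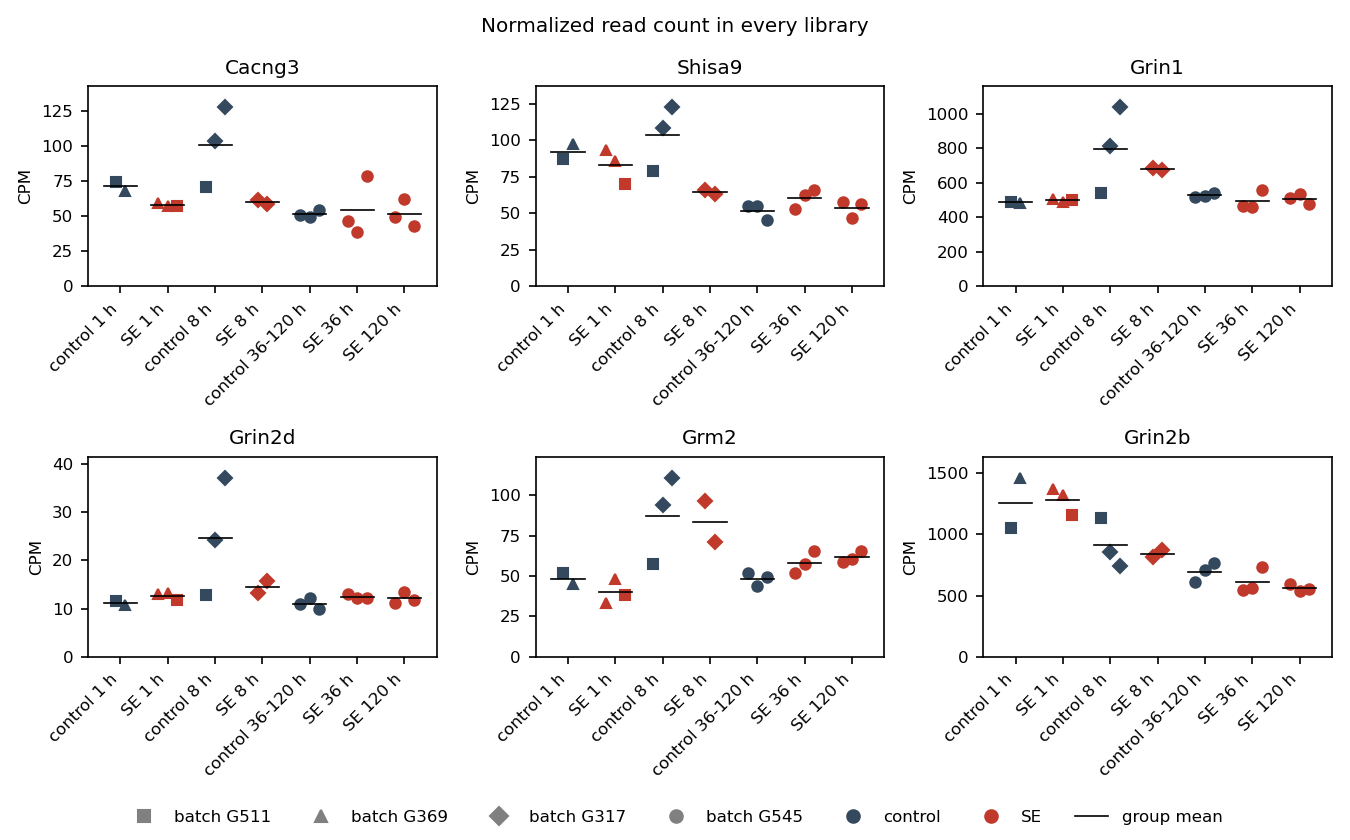
Level (CPM, y axis) of Cacng3, Shisa9, Grin1, Grin2d, Grm2 and Grin2b in each of the 19 libraries by group (x axis), with controls in dark blue, SE in red, symbols for the batch and bars at the group mean. The 2 controls of batch G317 at 8 h stand highest for Cacng3, Shisa9, Grin1 and Grin2d, and Grm2 lies above the shared controls in all 6 SE libraries of 36 h and 120 h.

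The SE effect was compared between times in 1 model of all 19 libraries, and 0 of 31 genes passed by QL (background 0.149% for 8 h minus 1 h, 0.144% for 36 h minus 8 h and 0.0804% for SE at 120 h against 36 h). Unadjusted p was under 0.05 for 5, 4 and 0 genes (background 12.3%, 14.1% and 4.21%). The effect on Shisa9 was 0.90 ± 0.22 higher at 36 h than at 8 h on the log2 scale (standard error, QL adjusted p = 0.109). Shisa9 passed by the likelihood ratio test (background 1.14%) and DESeq2 (1.76%), and Shisa9 and Cacng3 passed with no filter on low counts (2.73%). Cacng3 (0.83 ± 0.32), Grin2d (0.93 ± 0.36) and Grm3 (0.51 ± 0.23) had the other unadjusted p under 0.05. These contrasts take in the 8-h controls of both batches.

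Of 16 other glutamate receptor and auxiliary genes 11 were tested, and 0 passed against all controls. At 120 h Shisa6, an AMPA receptor partner, had 189, 175 and 181 CPM in the shared controls and 146, 125 and 150 after SE. Prrt1, another such partner, had 204, 207 and 209 CPM in the same controls and 171, 171 and 168 after SE. SE was below all controls for both genes, by log2 fold changes of -0.36 ± 0.07 and -0.27 ± 0.05 (standard error, QL adjusted p = 0.224 and 0.144). At 8 h Prrt1 had 193, 437 and 633 CPM in controls, the first of them from G511, and 234 and 183 after SE. Within G317, 4 of the 11 were called lower and 0 higher (over all genes 13.4% called, 7.72% lower).

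Of 31 genes of postsynaptic scaffolds, signalling and receptor traffic, 1 passed against all controls. Homer1, which links group I metabotropic receptors to the postsynaptic density, had 88.0, 82.5 and 92.1 CPM in the shared controls and 58.6, 57.0 and 57.7 at 120 h after SE. SE was below all controls, with a log2 fold change of -0.59 ± 0.06 (standard error, QL adjusted p = 0.0246). At 120 h 0 of all genes were called lower with all 19 libraries in 1 fit, a replicate block, or a choroid plexus or Xist covariate. The same held without control replicate 1 or 3 and without any single SE library, so Homer1 did not pass in these fits. Nptx2, a pentraxin that gathers AMPA receptors, had 17.7, 15.5 and 20.6 CPM in the 8-h controls and 69.7 and 54.7 after SE (log2 fold change 1.78 ± 0.20, adjusted p = 0.0760). Arc, which drives AMPA receptor endocytosis, had 56.2 and 71.0 CPM in the 1-h controls and 132, 514 and 472 after SE (log2 fold change 2.55 ± 0.52, adjusted p = 0.356). Within G317 at 8 h, 3 of the 31 were called higher and 4 lower (over all genes 13.4% called, 7.72% lower). The list's median log2 fold change was 0.00, -0.13, -0.04 and -0.12 in order of time.

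Of 17 genes of glutamate synthesis, uptake and vesicular loading, 0 passed against all controls. Slc38a2, a glutamine transporter, had 169, 106 and 102 CPM in the 8-h controls and 230 and 303 after SE, without overlap (log2 fold change 1.07 ± 0.24, standard error, QL adjusted p = 0.410). Within G317, Slc38a2 was called higher and Got2, a mitochondrial aspartate aminotransferase, lower (over all genes 13.4% called). The list's median log2 fold change was -0.04, 0.07, -0.04 and -0.02 in order of time.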

How the data were processed

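Poly(A) RNA of 19 left hippocampi, each from 1 mouse, was sequenced by the authors from stranded libraries. Per the labels and the study's methods, reads were aligned to NCBIM37 with HISAT2 2.1.0 and counted per gene with HTSeq, and the deposited values are raw counts. Names, positions and exon lengths were taken here from Ensembl 65, which named 33068 of 43629 identifiers. As 10520 identifiers are numbered above its highest, the annotation used for counting may differ. Library totals, which set the precision, were 8503816 to 28465548 counts.

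Counts were filtered with filterByExpr, normalized by TMM and tested with the quasi-likelihood test of edgeR 4.0.16 (R 4.3.3) on the libraries of each time, without covariates. P-values were adjusted by Benjamini-Hochberg over every gene in the fit, at a threshold of 0.05, and intervals are at 95% confidence. CPM used factors of all 19 libraries. The members and gene lists were chosen with earlier results of these data known. Values per library are given for members that passed and otherwise for up to 6 members per time with the smallest p among those whose groups did not overlap, with the highest and lowest of each class in controls, Grin2a at 120 h, and up to 3 genes of each further list, except that some items are not reported here. Further members were singled out after their values were seen, among them Gria4, Grin2c, Grik4 and Cacng5. Alternatives were the likelihood ratio test, DESeq2 1.42.0, RLE factors, unfiltered counts, a joint fit of all 19 libraries, covariates (batch, choroid plexus score, Xist), a replicate block and each library left out, with a GC correction and further fits within batch G317 added after seeing the data. The fits of the 4 times were run on simulated counts with 200 changed genes, split evenly between log2 changes of 1 and 2. At a change of 1, 66, 34, 68 and 63 were called in order of time, and at 2, 79, 81, 99 and 97. False calls numbered 13, 9, 12 and 11. Smaller changes were not simulated.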

Additional observations from a re-analysis of the deposited data

Results flagged for a closer look

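Grin3a drew attention because its SE libraries all lay above the controls at 1 h and all below them at 8 h, so that its log2 fold changes at these times were 0.41 apart. In the model of all 19 libraries the 8-h effect minus the 1-h effect was -0.40 ± 0.26 (standard error), and this difference did not pass (edgeR QL adjusted p = 0.557). Without control replicate 1 of 1 h the 1-h value was 0.11, against 0.18 with both controls.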

How the results depend on the processing

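At 1 h, and for SE at 120 h against 36 h, 0 members passed under every alternative run. Shares of all genes called in the same fit are given in brackets. At 8 h the main count of 0 became 5 of 31 with batch as a covariate (13.5%). It was 1 with all 19 libraries in 1 fit (2.43%), 1 with unfiltered counts (1.41%) and 0 to 5 over the libraries left out. The 5 arose without control replicate 1 (13.4%). The batch covariate takes up that control, the lone G511 library of 8 h, so these fits are no separate tests. Further fits within batch G317 were added after seeing the data. They called 6 with GC correction (14.8%), 6 by the likelihood ratio test (16.2%) and 6 by DESeq2 (14.1%). DESeq2 called 2 at 120 h (0.9%) and 1 for 36 h minus 8 h (1.76%). For that contrast 1 was called by the likelihood ratio test (1.14%) and 2 with unfiltered counts (2.73%). The 36-h fit without the 2 SE libraries of high choroid plexus markers leaves 1 SE library and is not counted here. The other alternatives, each left-out library at 36 h and 120 h included, called 0. The cause was not tested, save that leaving out control replicate 1 of 8 h leaves 1 batch. The median level of the members in controls was 12.5 CPM per kilobase, 14.4 by the longest transcript, 14.3 in the 1-h controls and 10.4 in the 36-120 h controls.

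The deviations of same-numbered libraries from their group means correlated at -0.24 to 0.21. With 2 or 3 libraries a group, whose deviations sum to 0, this cannot show whether the replicate numbers pair mice. With a replicate block 0 members passed at each time and for SE at 120 h against 36 h, and no block was fitted for the other contrasts between times. With 2 or 3 mice a group, intervals were wide, and a missed threshold does not show that SE and control were alike.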
